A study of Mus musculus with 24 samples.

Results

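The thick ascending limb is the stretch of the kidney tubule that reabsorbs salt without water. The expression of 9 genes typical of it was described in mouse kidneys after myocardial infarction (MI), out of 56941 genes in the count table and 12780 genes with enough counts to be tested. These genes are Umod, Slc12a1, Kcnj1, Bsnd, Cldn16, Cldn19, Cldn10, Casr and Egf. They were chosen by name for their known role in this segment, with earlier results of these data known. All 9 were tested. Kidneys came from male wildtype C57BL/6J mice, aged 8–11 weeks at surgery. In these the LAD, a coronary artery, had been permanently tied off, or a sham operation was done without this step. Kidneys of infarcted mice were taken 5d or 28d after surgery (5d and 28d post-MI), and those of sham mice 5d after theirs. The sham group was therefore the control for both times. At 28d the time since surgery, the age that goes along with it and the infarction cannot be told apart. The labels list 8 sham kidneys, 9 kidneys at 5d and 7 at 28d, of which 8, 8 and 6 could be assigned to their counts and were used. Each is named by its group and replicate number.

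Cells of the thick ascending limb take up sodium, potassium and chloride from the tubular fluid through the cotransporter NKCC2, return potassium to the fluid through the channel ROMK and pass chloride to the blood side, for which barttin is needed. The resulting positive voltage in the lumen drives calcium, magnesium and sodium between the cells through pores built from claudins. The same cells secrete uromodulin, the most abundant protein of normal urine, and make the precursor of epidermal growth factor. In whole kidney RNA these genes are read together with those of every other segment, so that fewer cells of the segment and less RNA per cell cannot be told apart.

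The promoters of 4 of the genes are shown because 3 of them (Umod, Slc12a1 and Cldn19) had the closest shared variation across kidneys and Cldn10 had the only negative log2 fold change at 5d post-MI. They were taken from RefSeq (GRCm38.p6), which gave a window for 8 of the 9 members and none for Bsnd. Each sequence is printed 5′ to 3′ on the strand of its gene and ends before the outermost annotated start. Capitals mark the letters GTTAAT, or ATTAAC where the match is on the other strand, a half-site of the factor HNF1.

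Umod: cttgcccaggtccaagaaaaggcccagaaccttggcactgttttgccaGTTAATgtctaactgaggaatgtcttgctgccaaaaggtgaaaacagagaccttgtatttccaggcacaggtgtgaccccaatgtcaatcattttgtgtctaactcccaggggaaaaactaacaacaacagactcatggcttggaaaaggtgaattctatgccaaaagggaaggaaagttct
Slc12a1: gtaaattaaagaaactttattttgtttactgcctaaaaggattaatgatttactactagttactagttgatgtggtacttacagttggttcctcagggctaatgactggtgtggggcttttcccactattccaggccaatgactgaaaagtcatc
Cldn19: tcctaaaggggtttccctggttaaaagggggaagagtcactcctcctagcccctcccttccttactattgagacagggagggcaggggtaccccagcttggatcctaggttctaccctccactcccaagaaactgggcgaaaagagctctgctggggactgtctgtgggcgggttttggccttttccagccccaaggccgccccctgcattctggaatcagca
Cldn10: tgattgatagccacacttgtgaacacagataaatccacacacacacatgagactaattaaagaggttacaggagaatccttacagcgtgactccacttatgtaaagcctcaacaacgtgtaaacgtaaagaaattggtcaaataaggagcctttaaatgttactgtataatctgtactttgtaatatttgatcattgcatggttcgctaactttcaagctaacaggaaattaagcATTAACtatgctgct

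The Umod sequence is chr7:119479283-119479512 on the minus strand and holds the motif 182 bases before the start. The Slc12a1 sequence is chr2:125152350-125152504 and the Cldn19 sequence chr4:119255191-119255413, both on the plus strand, and neither holds the motif. The Cldn10 sequence is chr14:118787621-118787870 on the plus strand and holds it 15 bases before the start, on the opposite strand. Cldn10 has another window, chr14:118854700-118854731, which is not printed and does not hold the motif. Which form of Cldn10 either window serves is not given in the sources used here. Both strands were searched. The motif was counted over full windows of 300 bases, of which the printed sequences are the part before the start. The 8 members had 11 such windows, of which 2 held the motif, and 7.1% of all 32851 promoter windows did so. A match in these letters is a description of the sequence and not a binding site.

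MACE (Massive Analysis of cDNA Ends) reads 3′ ends of polyadenylated mRNA, with unique molecular identifiers to remove PCR duplicates. Transcripts that share their last exon are read as one. In the GRCm38 annotation this applies to the 3 coding transcripts of Cldn10, which begin at 2 different first exons, and to the 3 of Kcnj1, which begin at 3. It applies as well to the coding transcripts of Slc12a1 (3), Cldn16 (2), Casr (3) and Egf (3). Genes annotated on the opposite strand overlap Umod, Slc12a1, Cldn19, Cldn10 and Egf. Whether counting used strand is not given in the sources used here, so reads of these genes and of their opposite partners cannot be told apart. Total counts per kidney ranged from 2280618 to 3786275. Counts of a member in a kidney reached from 8 for Casr to 4172 for Slc12a1. Genes of adrenal steroid synthesis, which mark tissue from outside the kidney, summed to over 50 CPM (counts scaled to the same total in each kidney) in 3 kidneys. These had 966 CPM in sham replicate 2, 719 CPM in sham replicate 6 and 84.0 CPM at 5d post-MI in replicate 5. The tests of single genes between groups and the correlations of member pairs were repeated without them. The relations to other cells' markers, the nearest genes and the ratios to Slc12a1 used all kidneys. The labels give no batch.

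Together the 9 members made up 0.258% ± 0.040 (SD, n = 8) of the counts in sham kidneys, 0.282% ± 0.031 (n = 8) at 5d post-MI and 0.269% ± 0.028 (n = 6) at 28d post-MI. Their summed level, as CPM after TMM scaling, was 1967 at the lowest, 2569 at the median and 3268 at the highest in sham kidneys. At 5d post-MI these values were 2600, 2728 and 3419 CPM, and at 28d post-MI they were 2398, 2841 and 3084 CPM. The ranges of all groups overlapped. None of the 9 members passed an adjusted p of 0.05 by edgeR's quasi-likelihood test in any comparison. By this rule 0.0704% of all tested genes (9 genes) were called at 5d post-MI against sham, 0.0235% (3 genes) at 28d post-MI against sham and 0.415% (53 genes) at 28d against 5d post-MI. DESeq2 and limma's voom called none of the members either, with 0.274% and 0.172% of all genes called at 5d, 0.329% and 0.0861% at 28d, and 1.06% and 0.493% at 28d against 5d. The 1.06% is a share of the 9063 genes to which DESeq2 gave an adjusted p there, and the other shares are of 12780 genes. At an unadjusted p under 0.05, 3 members were higher at 5d post-MI (Umod, Kcnj1 and Egf) and 3 at 28d post-MI (Kcnj1, Bsnd and Egf), while 3.92% and 4.45% of all genes were higher by this rule. At 28d against 5d, no member passed it, and 9.05% of all genes did in either direction. For no member were 2 groups without overlap, and 0.0548%, 0.258% and 0.344% of all genes had none in these comparisons.

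**Figure D1:**
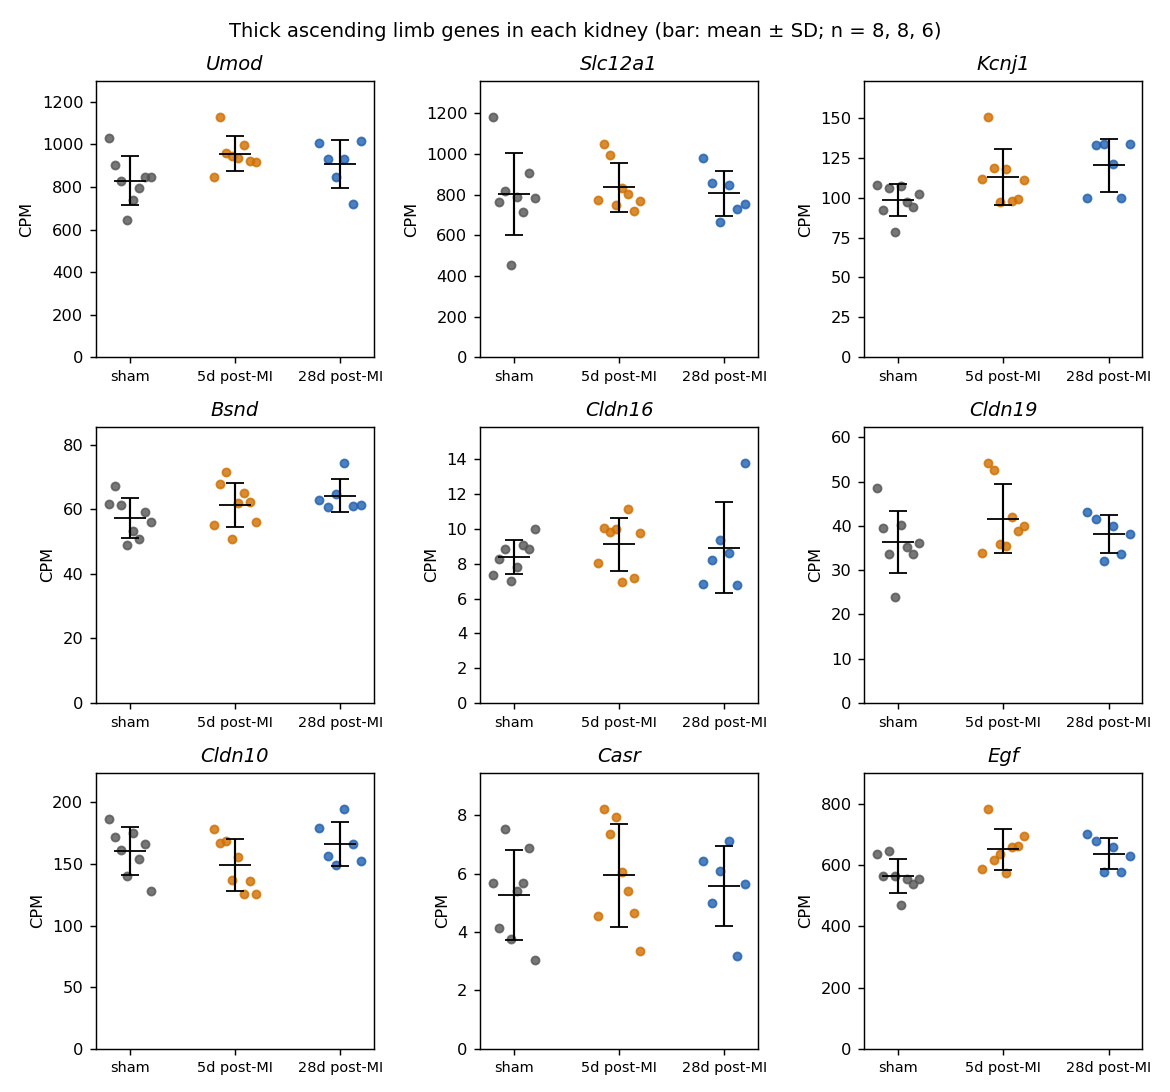
CPM of each member (vertical axis, starting at 0) in every sham kidney (grey, n = 8) and every kidney at 5d (orange, n = 8) and 28d post-MI (blue, n = 6), with the mean ± SD as bars. The groups overlap for all 9 members, and the sham kidneys of Slc12a1 spread from 455 to 1182 CPM.

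Slc12a1, which encodes NKCC2, was the member whose sham kidneys lay farthest apart in CPM. Sham kidneys had 455 CPM at the lowest, 787 at the median and 1182 at the highest, kidneys at 5d post-MI 717, 788 and 1047 CPM, and kidneys at 28d post-MI 667, 802 and 978 CPM. Both the lowest and the highest of the 22 kidneys were sham kidneys, replicates 4 and 1. The means were 801 ± 202 CPM in sham, 836 ± 121 at 5d and 806 ± 111 at 28d (SD). The log2 fold change against sham was 0.06 at 5d (SE 0.14, adjusted p = 0.955, 95% interval −0.23 to 0.35), and it was −0.03 without sham replicate 4. At 28d it was 0.01 (SE 0.15, adjusted p = 0.997, 95% interval −0.30 to 0.32), and it turned negative with library totals in place of TMM. The direction of Slc12a1 was therefore not settled in either comparison.

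Kcnj1 encodes ROMK, the apical potassium channel, which principal cells of the collecting duct also use. Its level was 78.7 CPM at the lowest, 99.8 at the median and 108 at the highest in sham kidneys, and 97.2, 112 and 151 CPM at 5d post-MI. At 28d post-MI the values were 99.8, 127 and 134 CPM. Of the kidneys at 5d, 5 of 8 lay above every sham kidney, and of those at 28d, 4 of 6. The mean was 98.3 ± 9.996 CPM in sham, 113 ± 17.5 at 5d and 120.3 ± 16.4 at 28d post-MI (SD). The log2 fold change was 0.20 at 5d (SE 0.09, unadjusted p = 0.0263, adjusted p = 0.564) and 0.29 at 28d (SE 0.09, unadjusted p = 0.00412, adjusted p = 0.331). Without replicate 2 at 5d, the highest kidney, the log2 fold change at 5d was 0.13. The change at 28d, a level 22.7% higher than in sham with a 95% interval of 0.10 to 0.49 on the log2 scale, was the largest of any member in either comparison with sham. It did not pass the test across all genes, except when genes with low counts were also tested (adjusted p = 0.0125).

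Bsnd encodes barttin. In sham kidneys its level was 48.8 CPM at the lowest, 57.7 at the median and 67.2 at the highest, at 5d post-MI 50.8, 62.1 and 71.5 CPM, and at 28d post-MI 60.9, 62.1 and 74.4 CPM. All 6 kidneys at 28d lay above the sham mean, and 1 of them above every sham kidney. The log2 fold change was 0.10 at 5d (SE 0.07, adjusted p = 0.800) and 0.17 at 28d (SE 0.08, unadjusted p = 0.0443, adjusted p = 0.562).

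Cldn16 and Cldn19 encode claudins that together form the path of calcium and magnesium between cells, and loss of either causes urinary magnesium and calcium wasting in humans. Cldn16 was low, with 16 to 44 counts in a kidney. It had 7.01 CPM at the lowest, 8.55 at the median and 9.98 at the highest in sham kidneys, 6.93, 9.79 and 11.1 CPM at 5d post-MI, and 6.75, 8.42 and 13.8 CPM at 28d post-MI. The highest of all kidneys, replicate 7 at 28d, stood well above the next of its group at 9.35 CPM, and without it the log2 fold change at 28d went from 0.11 (SE 0.17) to −0.07. At 5d the log2 fold change of Cldn16 was 0.14 (SE 0.15, adjusted p = 0.879).

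Cldn19 had 24.0 CPM at the lowest, 35.7 at the median and 48.5 at the highest in sham kidneys, 33.9, 39.5 and 54.3 CPM at 5d post-MI, and 32.1, 39.1 and 43.1 CPM at 28d post-MI. Its lowest kidney was again sham replicate 4. The log2 fold change was 0.20 at 5d (SE 0.11, adjusted p = 0.693) and 0.07 at 28d (SE 0.12, adjusted p = 0.925). Without sham replicate 4 these were 0.13 and −0.0033, so that the direction at 28d rested on 1 kidney.

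Cldn10 encodes the claudin whose form 10b is the sodium pore of this segment, while form 10a serves the proximal tubule, and the 2 forms were not separated by these reads. Its level was 128 CPM at the lowest, 164 at the median and 187 at the highest in sham kidneys, 125, 146 and 178 CPM at 5d post-MI, and 149, 162 and 195 CPM at 28d post-MI. Of the kidneys at 5d, 2 of 8 lay below every sham kidney. Cldn10 was the only member with a negative log2 fold change at 5d, −0.11 (SE 0.08, adjusted p = 0.816, 95% interval −0.28 to 0.07), and at 28d its log2 fold change was 0.05 (SE 0.09, adjusted p = 0.925). The difference between the times, a log2 of 0.16 (SE 0.09, unadjusted p = 0.0912, adjusted p = 0.649), was the largest of any member at 28d against 5d.

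Casr encodes the calcium-sensing receptor, which sits on the blood side of these cells and restrains calcium reabsorption. It had the fewest counts, 8 to 27 in a kidney, and was 3.05 CPM at the lowest, 5.54 at the median and 7.52 at the highest in sham kidneys. At 5d post-MI it had 3.36, 5.74 and 8.23 CPM, and at 28d post-MI 3.18, 5.87 and 7.10 CPM. The log2 fold changes of 0.20 (SE 0.21) at 5d and 0.10 (SE 0.23) at 28d were no larger than their standard errors. The 95% interval at 5d ran from −0.21 to 0.62, the widest of the members.

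Umod, the gene of uromodulin, had 643 CPM at the lowest, 838 at the median and 1032 at the highest in sham kidneys. At 5d post-MI it had 849, 942 and 1129 CPM, and at 28d post-MI 719.5, 931 and 1018 CPM. All 8 kidneys at 5d lay above the sham mean, though 1 alone was above every sham kidney. The mean was 830.2 ± 114 CPM in sham, 957 ± 81.3 at 5d and 909 ± 111 at 28d post-MI (SD). The log2 fold change was 0.21 at 5d (SE 0.08, unadjusted p = 0.0192, adjusted p = 0.547) and 0.13 at 28d (SE 0.09, unadjusted p = 0.148, adjusted p = 0.729).

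Egf encodes the membrane-bound precursor of epidermal growth factor, which in mouse kidney comes from the thick ascending limb and the distal convoluted tubule. It had 469 CPM at the lowest, 559 at the median and 646 at the highest in sham kidneys, 575, 648 and 785 CPM at 5d post-MI, and 579, 644 and 702 CPM at 28d post-MI. All 8 kidneys at 5d and all 6 at 28d lay above the sham mean, and 4 and 3 of them above every sham kidney. The log2 fold change at 5d was 0.21 (SE 0.06, 95% interval 0.08 to 0.33), with the lowest unadjusted p of the members, 0.00196, and an adjusted p of 0.307. At 28d it was 0.17 (SE 0.07, unadjusted p = 0.0131, adjusted p = 0.428). When genes with low counts were also tested, the adjusted p at 5d was 0.0112.

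Across the members, the log2 fold change at 5d post-MI was above 0 for 8 of 9, with a median of 0.20, while 50.1% of all tested genes lay above 0 and their median was 0.00018. At 28d post-MI it was above 0 for all 9 with a median of 0.11, against 49.6% and −0.0012 over all genes, but Slc12a1 fell below 0 with library totals alone and without the kidneys with adrenal genes. At 28d against 5d post-MI it was above 0 for 3 of 9 (Kcnj1, Bsnd and Cldn10), with a median of −0.03, against 48.6% and −0.0046. Both comparisons with sham used the same sham kidneys, so their directions are not separate observations, and the members of 1 segment are not independent of each other. The levels of the members differed from sham by −7.08% to 15.3% at 5d and by 0.556% to 22.7% at 28d.

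**Figure D2:**
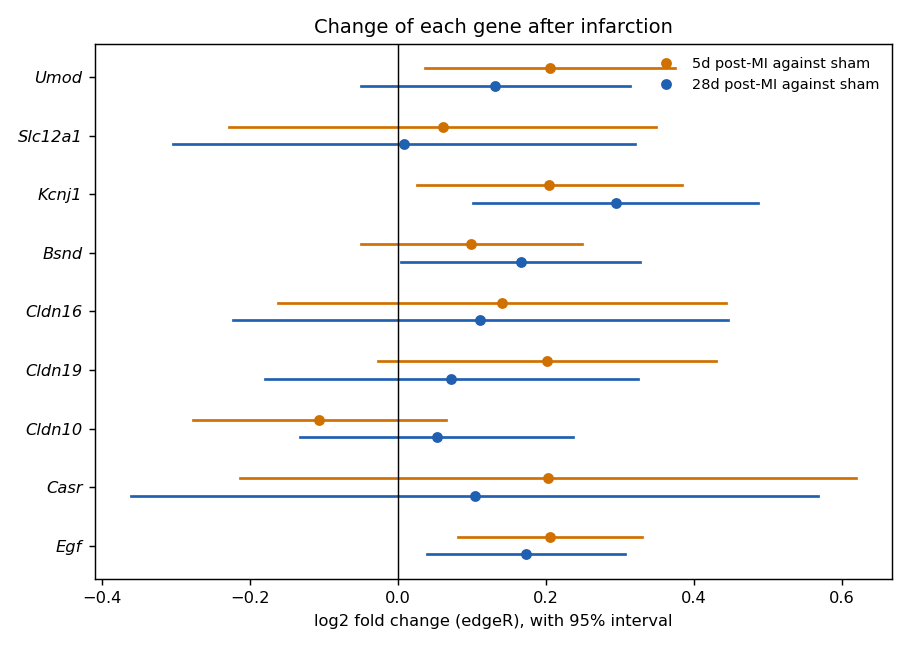
Log2 fold change of each member against sham at 5d (orange) and 28d post-MI (blue) by edgeR, with lines for the 95% interval and a vertical line at 0. The interval excludes 0 for Umod, Kcnj1 and Egf at 5d and for Kcnj1, Bsnd and Egf at 28d, before any adjustment for the number of genes tested.

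Marker genes of other cells are given here beside the members. Proximal tubule markers (8 of 9 tested) summed to 7498–9118 CPM in sham kidneys, 6027–8256 CPM at 5d and 8156–9394 CPM at 28d. Of these, 1 was higher and 1 lower at 5d, and 2 were higher and 1 lower at 28d, at an unadjusted p under 0.05. Thin limb and inner medulla markers (8 of 9 tested) summed to 635–823, 609–1064 and 742–836 CPM, and 2 of them, Aqp1 and Slc5a3, were higher at 5d by the unadjusted test. Principal cell markers (7 of 7) summed to 756–1043, 651–1609 and 900.3–1036 CPM. Intercalated cell markers (6 of 6) summed to 185–202, 181–235 and 187–205 CPM. Markers of the distal convoluted tubule (6 of 6) summed to 611–881, 550–889 and 676–828 CPM, and Slc8a1, the sodium-calcium exchanger, was lower at 5d by the unadjusted test. Among all marker lists, the genes called by the adjusted test were 4 haemoglobin genes (Hbb-bt, Hbb-bs, Hba-a2 and Hba-a1) that were higher at 5d than in sham kidneys and lower at 28d than at 5d. With the other red cell genes they summed to 2239–4164 CPM in sham, 5009–19150 CPM at 5d and 1835–5165 CPM at 28d post-MI. Podocyte markers (6 of 6 tested) summed to 153–189.9, 176–252 and 161–223 CPM, all 6 with log2 fold changes above 0 at both times, endothelial markers (7 of 7) to 319–416, 263–396 and 356–391 CPM, and leukocyte markers (6 of 8) to 252–304, 213–323 and 229–323 CPM. By the unadjusted test at 5d, 2 podocyte markers were higher, and 2 endothelial and 4 leukocyte markers were lower, and at 28d these counts were 1, 1 and 1. Adipocyte markers (6 of 7) summed to 371–2068, 189.7–1438 and 374–951 CPM, with all 6 log2 fold changes below 0 at both times (median −0.50 at 5d and −1.04 at 28d) and 4 of them lower at 28d by the unadjusted test. Of all tested genes, 3.92% were higher and 3.97% lower at 5d by the unadjusted test, and 4.45% and 4.23% at 28d. The log2 fold change was above 0 for 50.1% of all tested genes at 5d and for 49.6% at 28d. No marker list was at 0 in any group. The part of these cells in the members' values was not tested.

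Other genes of the segment were taken from 7 lists (salt and acid transport, kinases and trafficking of NKCC2, receptors, calcium and magnesium handling, uromodulin processing and transcription factors, further abundant genes, and macula densa), of which 51 of 59 genes were tested. None passed the adjusted test in any comparison. At an unadjusted p under 0.05, 6 were higher and 1 lower at 5d post-MI, 4 higher and 1 lower at 28d post-MI, and 2 higher and 5 lower at 28d against 5d, while 7.9%, 8.68% and 9.05% of all genes passed in either direction. The shares of all genes that were higher and lower by this rule were 3.92% and 3.97% at 5d, 4.45% and 4.23% at 28d, and 5.03% and 4.01% at 28d against 5d.

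Among transport genes, Kcnj16, a potassium channel subunit of the blood side, had a log2 fold change of 0.13 at 28d (SE 0.05, adjusted p = 0.452). Slc4a7, a sodium bicarbonate cotransporter, was at a log2 of 0.25 at 5d (SE 0.14, adjusted p = 0.673), and Fxyd2, the gamma subunit of the sodium pump, at 0.07 at 28d (SE 0.04, adjusted p = 0.644). These 3 genes all had positive log2 fold changes at both times, and none passed the adjusted test.

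Of the genes that regulate NKCC2, Wnk4, a kinase upstream of the cotransporter's activators, had 118 ± 12.9 CPM in sham and 131 ± 8.64 at 28d post-MI, a log2 fold change of 0.15 (SE 0.07, adjusted p = 0.530). Maged2, whose loss causes a transient antenatal form of Bartter syndrome, had 17.1 ± 3.43 CPM in sham, 16.5 ± 2.29 at 5d and 12.7 ± 2.64 at 28d. Its log2 fold change at 28d was −0.41 (SE 0.14, unadjusted p = 0.00738, adjusted p = 0.373). Cab39, an adaptor of the activating kinases, was at a log2 of 0.14 at 5d (SE 0.08, adjusted p = 0.686). Of the receptors and their effectors, Pth1r, the parathyroid hormone receptor, which the proximal tubule also expresses, had a log2 fold change of 0.14 at 28d (SE 0.06, adjusted p = 0.530). Adcy6, the adenylyl cyclase of this segment, was at 0.44 at 28d (SE 0.21, adjusted p = 0.554), and Gcgr, the glucagon receptor, at 0.06 at 5d (SE 0.10, adjusted p = 0.928).

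In the list of calcium and magnesium handling genes, which leaves out the members, all 5 tested genes had log2 fold changes below 0 at 5d post-MI (median −0.16). The 2 tested macula densa genes were also below 0, while 50.1% of all tested genes lay above 0. Among the members that serve calcium and magnesium, Cldn16 (0.14), Cldn19 (0.20) and Casr (0.20) were above 0 at 5d. Cnnm2, which is mutated in inherited magnesium loss, had 29.8 ± 3.12 CPM in sham and 25.7 ± 3.34 at 5d, a log2 fold change of −0.22 (SE 0.09, unadjusted p = 0.0171, adjusted p = 0.520). Rragd, a GTPase likewise mutated in magnesium loss, was at −0.16 at 5d (SE 0.09, adjusted p = 0.712) and Cldn3 at −0.19 at 28d (SE 0.17, adjusted p = 0.830). At 28d against 5d, Rragd was at 0.30 (SE 0.10, adjusted p = 0.280).

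The transcription factors Irx1 and Irx2 had log2 fold changes of 0.35 (SE 0.15, adjusted p = 0.587) and 0.40 (SE 0.14, adjusted p = 0.437) at 5d post-MI. Hpn, the protease hepsin that releases uromodulin from the cell surface, was at 0.10 at 28d (SE 0.05, adjusted p = 0.600). Among other abundant genes of the segment, Sult1d1, a sulfotransferase, had 414–517 CPM in sham kidneys, 478–687 CPM at 5d and 434–554 CPM at 28d post-MI. With a log2 fold change of 0.32 at 5d (SE 0.07, unadjusted p = 0.000214, adjusted p = 0.119) it came nearest to the threshold of the named genes of the segment. Tmem52b was at 0.21 at 5d (SE 0.09, adjusted p = 0.565), and Ptgs1, a cyclooxygenase, at −0.20 at 28d (SE 0.15, adjusted p = 0.782). Of the macula densa list, 3 of 5 genes (Nos1, Ptgs2 and Pappa2) had too few counts to be tested, and Ptges and Avpr1a were at −0.26 (SE 0.14) and −0.20 (SE 0.28) at 5d.

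Receptors of epidermal growth factor and the other ligands of its family were tested for 8 of 11 genes, none of which passed the adjusted test. Hbegf, a ligand of the same receptor as Egf, had 13.2–25.4 CPM in sham kidneys, 7.92–21.4 CPM at 5d and 13.5–37.9 CPM at 28d. Its log2 fold change was −0.48 at 5d (SE 0.24, adjusted p = 0.645) and 0.40 at 28d (SE 0.24, adjusted p = 0.677), and at 28d against 5d it was 0.89 (SE 0.25, unadjusted p = 0.00202, adjusted p = 0.177). Erbb4, a receptor of the family, was at 0.30 at 5d (SE 0.19, adjusted p = 0.737), and Nrg4, a ligand of Erbb4, at −0.43 at 28d (SE 0.27, adjusted p = 0.687). Egf was thus higher on average than in sham at both times, and Hbegf lower at 5d and higher at 28d, with none of these differences past the test.

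Kidneys of 1 group also differed among themselves, and some of the members did so together. Sham replicate 4 was the lowest of its group in 6 of 9 members and below the group mean in 8, with Slc12a1 a log2 of −0.77 and Cldn19 −0.56 from the mean and Egf 0.00453 from it. Sham replicate 1 was the highest in 5 members, and at 5d post-MI replicate 2 was the highest in 6 and above the mean in all 9. At 28d post-MI, replicate 6 was the lowest in 4. To compare kidneys of all groups, each member's log2 CPM was taken as the difference from its group mean, and each of the 36 pairs of members was correlated over the 22 kidneys, with p-values from 100000 shuffles and adjusted over the 36 pairs. Of the 36, 35 were positive, with a median r of 0.38, and 8 had an adjusted p under 0.05, all of them positive. All members of a kidney share its library and its scaling. The shares of positive and of passing pairs among all tested genes were not computed. Whether the members varied together more than other genes do was therefore not tested. Without the 3 kidneys with adrenal genes, 5 pairs had an adjusted p under 0.05. These were the 3 pairs among Slc12a1, Cldn19 and Umod, Slc12a1 with Bsnd (r = 0.651), and Bsnd with Casr (r = 0.712, against 0.332 with all kidneys).

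The closest pair was Slc12a1 and Cldn19 (Pearson's r = 0.859, permutation p = 0.0001, adjusted p = 0.00288, and Spearman's rho = 0.759, permutation p = 0.00016, adjusted p = 0.00576). Without the 2 kidneys farthest from the median of Slc12a1, r was 0.731 (permutation p = 0.00213). In every pair the 2 kidneys left out were those farthest from the median of 1 of its genes, so they were not the same kidneys throughout. That gene was Umod in the pairs of Umod, and Slc12a1 in its pairs with Bsnd and Cldn10. Umod was close to both, with r = 0.776 to Slc12a1 (adjusted p = 0.00336, rho = 0.695 with adjusted p = 0.012, r = 0.714 without 2 kidneys) and r = 0.763 to Cldn19 (adjusted p = 0.00288, rho = 0.718 with adjusted p = 0.0108, r = 0.687 without 2 kidneys). NKCC2, claudin-19 and uromodulin transcripts thus went up and down together from kidney to kidney. The other 5 pairs past the threshold were Bsnd with Cldn19 (r = 0.605, rho = 0.521), with Slc12a1 (r = 0.572, rho = 0.578) and with Umod (r = 0.550, rho = 0.598), Umod with Egf (r = 0.599, rho = 0.590) and Slc12a1 with Cldn10 (r = 0.569, rho = 0.598), with adjusted permutation p-values between 0.0391 and 0.041 for r. By rho, Bsnd with Cldn19 did not pass (adjusted permutation p = 0.0961). Without 2 kidneys, r was 0.484 for Slc12a1 with Bsnd, 0.472 for Umod with Bsnd and 0.504 for Slc12a1 with Cldn10, and these 3 pairs no longer passed (adjusted permutation p = 0.133 for each).

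**Figure D3:**
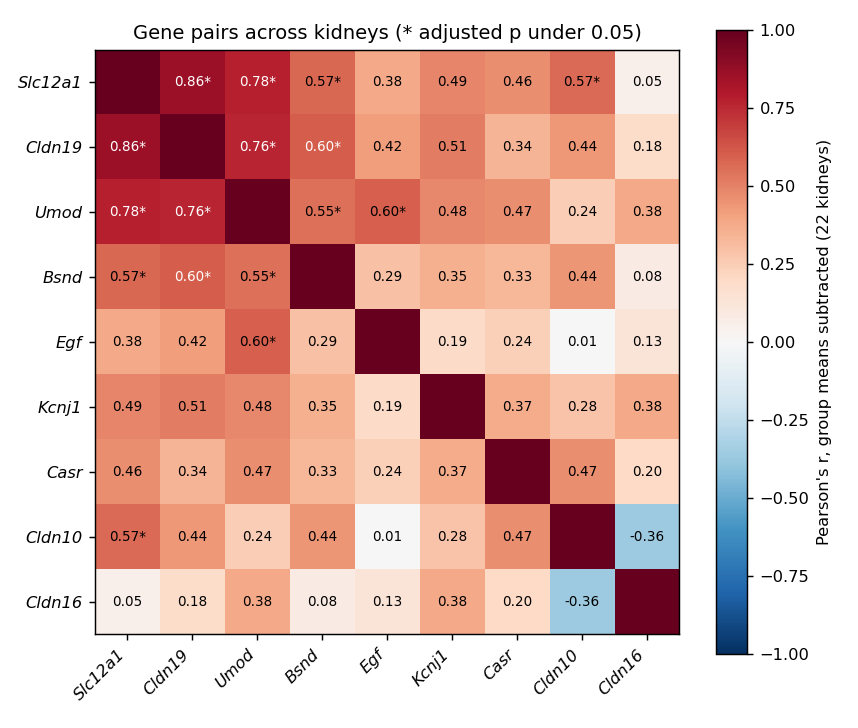
Pearson's r of each pair of members over 22 kidneys, after each group's mean log2 CPM was subtracted (colour from −1 in blue to 1 in red, value in each cell, star for a permutation p under 0.05 adjusted over 36 pairs). Slc12a1, Cldn19 and Umod form the block with r of 0.76 to 0.86, and the row of Cldn16 has the lowest median, 0.158, and the only negative value, −0.36 with Cldn10.

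Cldn16 had no pair past the threshold. Its r was 0.376 to Umod (permutation p = 0.101), 0.381 to Kcnj1 (permutation p = 0.117), 0.0498 to Slc12a1 (permutation p = 0.802), 0.185 to its partner Cldn19 (permutation p = 0.372) and −0.36 to Cldn10 (permutation p = 0.104), and its median r over 8 pairs was 0.158. Counts in a kidney were 16 to 44 for Cldn16 and 1641 to 4172 for Slc12a1. Casr, with even fewer counts, had r between 0.20 and 0.468 and no pair past the threshold. Kcnj1 had more counts than Cldn19 (235 to 494 against 76 to 178) and r between 0.192 and 0.511, also with no pair past the threshold. Whether r differed between pairs was not tested, nor was the part of the number of counts in these values.

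**Figure D4:**
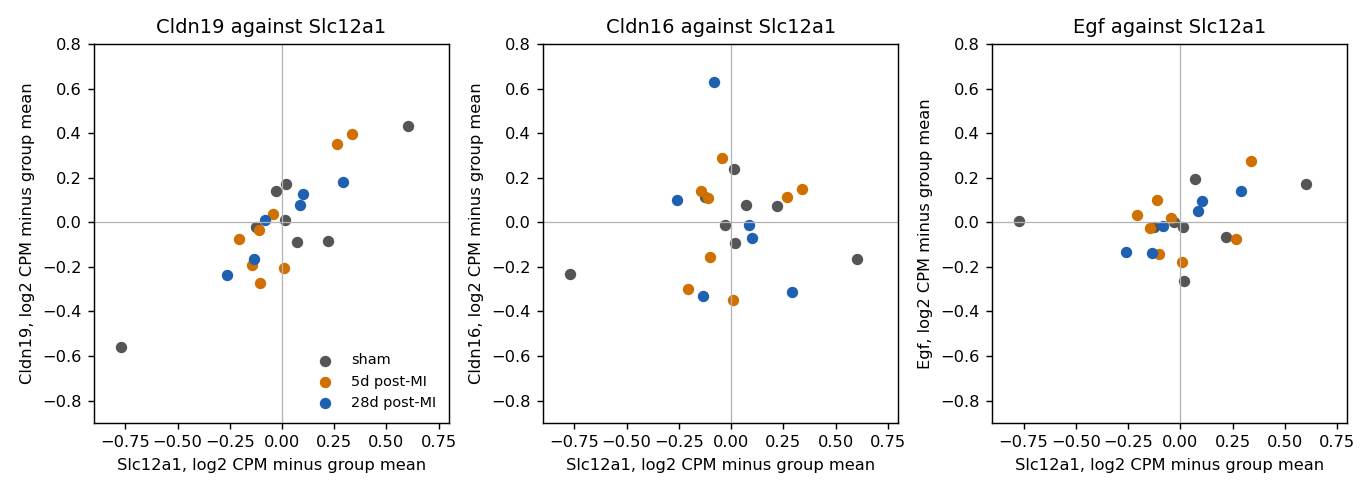
Deviation of Cldn19, Cldn16 and Egf (vertical axes) from the group mean in log2 CPM against that of Slc12a1 (horizontal axes), 1 point for each of 22 kidneys, coloured by group. Cldn19 follows Slc12a1 along the diagonal (r = 0.859), Cldn16 is scattered (r = 0.0498), and the sham kidney lowest in Slc12a1, at −0.77, sits at 0.00453 for Egf.

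For each member, the 3 genes most like it across the 22 kidneys were taken from all 12780 tested genes by Pearson's r of the same deviations. They are a description with no test, since they were the highest of many. Among the genes most like Slc12a1 were Wfdc15b (r = 0.915) and Ppp1r1a (r = 0.875). Wfdc15b was also first for Cldn19 (r = 0.873), before Mfsd4a (r = 0.871) and the urea transporter gene Slc14a2 (r = 0.840), and second for Umod (r = 0.777), between Eva1b (r = 0.785) and Aqp6 (r = 0.773), a water channel of intercalated cells. Slc12a1, Cldn19 and Umod therefore had a gene in common among their nearest. The other members shared none of theirs. Kcnj1 was most like Chka (r = 0.813), Efhd1 and Grk2, and Bsnd most like Ahr (r = 0.830), Apela and Neurl1b. Cldn16 was nearest to Gm43359 (r = 0.745), Gprc5b and Gm2445, Cldn10 to Fam43a (r = 0.837), Ddc and Tmem86a, Casr to Eif4a2 (r = 0.787), Gm11789 and Spry1, and Egf to Kxd1 (r = 0.804), Zfp408 and Itm2b.

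Across the same kidneys, the members were set beside 10 lists of markers of other cells (the mean log2 CPM of each list's tested genes, as deviation from the group mean), which gave 90 relations, 9 of them with an adjusted permutation p under 0.05. Proximal tubule markers ran opposite to Slc12a1 (r = −0.60, adjusted p = 0.00225, rho = −0.756, r = −0.699 without 2 kidneys), to Cldn19 (r = −0.699, adjusted p = 0.0018, rho = −0.724, r = −0.742 without 2 kidneys) and to Umod (r = −0.511, adjusted p = 0.0411, rho = −0.535 with adjusted p = 0.0838, r = −0.585 without 2 kidneys). Principal cell markers ran with Bsnd (r = 0.717, adjusted p = 0.0036, rho = 0.692), Cldn19 (r = 0.592, adjusted p = 0.0411, rho = 0.698), Slc12a1 (r = 0.502, adjusted p = 0.0411, rho = 0.719) and Umod (r = 0.489, adjusted p = 0.0435, rho = 0.701). Thin limb and inner medulla markers ran with Cldn19 (r = 0.606, adjusted p = 0.0435, rho = 0.656), and intercalated cell markers with Kcnj1 (r = 0.642, adjusted p = 0.0411, rho = 0.549, whose adjusted p was 0.0976). The 2 kidneys left out of a relation were those farthest from the median of its member. Without them, r of the principal cell, thin limb and intercalated relations lay between 0.469 and 0.676. Kidneys with more of the 3 closest members thus had more of the principal cell markers and less of the proximal tubule markers in their RNA. CPM values of a kidney are shares of 1 total, and how much medulla each piece of tissue held is not given in the sources used here. The part of either in these relations was not tested. The relations were not repeated without the kidneys with adrenal genes.

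Each member was last compared with Slc12a1 within the same kidney, as the log2 ratio of their CPM, by 16 exact permutation tests over all 12870 splits (5d) or 3003 splits (28d) of the kidneys. None passed, and the smallest two-sided p was 0.139 (adjusted p = 0.835). The ratio of Kcnj1 to Slc12a1 was −2.99 ± 0.28 on the log2 scale in sham kidneys and −2.74 ± 0.34 at 28d post-MI (SD), a difference of 0.25 (exact permutation p = 0.155, adjusted p = 0.835). The ratio of Egf to Slc12a1 was −0.46 ± 0.37 in sham, −0.35 ± 0.20 at 5d and −0.33 ± 0.09 at 28d, with differences of 0.11 and 0.14 (exact permutation p = 0.469 and 0.438). The ratio of Cldn10 to Slc12a1 differed from sham by −0.20 at 5d (exact permutation p = 0.139) and by 0.02 at 28d (exact permutation p = 0.902). Relative to NKCC2 transcripts, no difference of a member between groups passed the test. Each ratio also carries the spread of Slc12a1, which was 801 ± 202 CPM in sham kidneys (SD). These tests therefore cannot show whether the other members themselves stayed the same.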

How the data were processed

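Kidney RNA was sequenced by MACE. The authors state that they trimmed reads with Cutadapt and counted them with HTSeq after mapping to mm10, while the submitters' processing notes list mm39 and Bowtie2. Per the labels, PCR duplicates were removed with unique molecular identifiers. The authors deposited whole-number counts of 56941 genes and values named tpm, which equal CPM of each kidney's total (within 5e-06) and served to check the counts. Of the 48 columns of values, 4 share a name between kidneys and were not used.

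Counts were filtered by edgeR's filterByExpr (minimum count 10), scaled by TMM and fitted by the robust quasi-likelihood model over the 3 groups without covariates (R 4.3.3, edgeR 4.0.16, limma 3.58.1, DESeq2 1.42.0). F tests were two-sided, with Benjamini-Hochberg adjustment over 12780 genes and a threshold of 0.05. CPM values use the TMM-scaled totals, and correlations use log2 CPM with a prior count of 2 (Python 3.11.15, scipy 1.17.1). Symbols came from GENCODE M21 for 51948 identifiers. The fits were also run on simulated data, and the outcome is not reported here. The p-values of the fits set differences of group means against the spread between kidneys. Those of the correlations and ratios come from shuffles or splits of kidneys.

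Members and lists were chosen with earlier results of these data known. Named genes are all members, the called genes and the 2 genes of lowest p of each related list in each comparison with sham, and the 3 genes most like each member. Some of them are not reported here. Aqp1, Slc5a3 and Rragd and Hbegf at 28d against 5d were named after their values were seen, as were the relations to other cells' markers and to Slc12a1. Alternatives were other scalings, no filter, DESeq2, voom, fits of 2 groups, a replicate block, and fits without kidneys with adrenal genes or without each kidney.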

Additional observations from a re-analysis of the deposited data

Results flagged for a closer look

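In 30 groups of a member's or the summed level, each kidney at the edge of its group was compared with its nearest neighbour by Dixon's criterion, which chance passes in about 1 of 20 groups, and 3 kidneys passed. At 5d post-MI, replicate 2 had 151 CPM of Kcnj1 against 118 in the next kidney. At 28d post-MI, replicate 4 had 74.4 CPM of Bsnd against 64.7 in the next kidney, and replicate 7 had 13.8 CPM of Cldn16 against 9.35. The first of these was also the highest of its group in 5 other members. No difference between the times passed a test for any member.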

How the results depend on the processing

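The number of members called stayed at 0 in all comparisons under other scalings, DESeq2, voom, fits of 2 groups, without kidneys with adrenal genes and without each kidney in turn. The exception was testing genes with low counts too, which called 1 member at 5d post-MI (Egf) and 1 at 28d post-MI (Kcnj1). Over all genes that setting called 80, 94 and 160 genes in the comparisons in the order 5d against sham, 28d against sham and 28d against 5d, DESeq2 35, 42 and 96, voom 22, 11 and 63, fits of 2 groups 2, 31 and 26, library totals 5, 1 and 51, and fits without kidneys with adrenal genes 2, 1 and 39. Leaving out each kidney gave 1 to 38, 0 to 29 and 41 to 84 genes. Of the 36 pairs of members, 5 passed without the kidneys with adrenal genes, 11 with library totals and 6 without the 2 farthest kidneys of each pair, in place of 8.

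Log2 fold changes of the members kept direction and side of the threshold in 790 of 810 refits. Slc12a1 at 28d was −0.034 with library totals and −0.030 without kidneys with adrenal genes. Leaving out each kidney, it ran from −0.080 to 0.11 at 28d, from −0.027 to 0.16 at 5d and from −0.115 to 0.000128 at 28d against 5d. In the same way Cldn16 ran from −0.074 to 0.18 at 28d and from −0.22 to 0.039 at 28d against 5d, and Cldn19 from −0.0033 to 0.15 at 28d. At 28d against 5d, Casr ran from −0.19 to 0.014 and Egf from −0.061 to 0.0089. The log2 difference of the summed level lay between 0.09 and 0.20 at 5d, 0.06 and 0.16 at 28d and −0.07 and 0.0041 at 28d against 5d. The cause was not tested.

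Same-numbered kidneys of different groups correlated between −0.127 and 0.0899 in 18 pairs, none over 0.1, and 2 of 21 kidneys were closest to one of their own number, so the numbers did not pair them. With the replicate block, 0 members were called in each comparison, 2, 24 and 80 genes were called over all, and Cldn16 at 28d against 5d was at 0.0094 in place of −0.029.

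Casr and Cldn16 had under 50 counts in every kidney. How far depth limited their precision was not tested.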
